A study of Mus musculus with 6 samples.

Results

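The genes of glycolysis and of the response to low oxygen were examined in cortical cells with reduced Ybx1, an RNA-binding protein that reads 5-methylcytosine in mRNA. The set held 34 genes chosen by name: 17 glycolytic enzymes, 3 transporters of glucose or lactate, 3 regulators of the pathway's entry and exit, 10 target genes of the hypoxia-inducible factor, and Hif1a, which encodes the factor's oxygen-regulated subunit. The choice was made with earlier results of these data known. All 34 were among the 17920 genes of the table, and 33 were among the 13669 genes with enough counts to be tested. The exception was Adm, a secreted peptide hormone gene, with 7, 2 and 1 counts in WT and 4, 2 and 1 in KD. The cells came from the mouse cortex at E13.5 (the embryonic day), were kept in culture, and were infected with lentivirus (pLKO.1-Puro) that carried a short hairpin RNA, either a control (WT, 3 libraries) or one against Ybx1 (KD, 3 libraries). Both groups thus carried the vector and were selected with puromycin, an antibiotic that kills cells without it. The labels name the genotypes WT and KD and the tissue brain, and which of the hairpins against Ybx1 was used is not given in the sources used here. The mRNA was read by RNA-seq.

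Glycolysis turns glucose into pyruvate in the cytosol. Lactate dehydrogenase then turns pyruvate into lactate, or pyruvate dehydrogenase converts it inside the mitochondria. When oxygen is scarce, the prolyl hydroxylases that mark the alpha subunit of hypoxia-inducible factor for destruction slow down, the factor accumulates, and it raises genes for glucose uptake, glycolysis, new vessels, mitochondrial removal and its own hydroxylases. Many glycolytic enzymes are thus at once housekeeping genes and hypoxia targets. Cortical progenitors are known for high glycolysis, and neurons rely more on oxidative metabolism and use their own isoforms of several of the enzymes.

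Library totals lay between 16294635 and 16497505 estimated counts. Expression is given below in CPM, counts scaled by TMM to 1000000 per library, or, where genes are compared with each other, in the deposited TPM, which also correct for transcript length. Ybx1 (Entrez 22608) stood at 618, 615 and 653 CPM in WT 1, 2 and 3 and 98.2, 92.1 and 159 CPM in KD 1, 2 and 3, so that KD 3 kept the most Ybx1 (log2 fold change -2.43 ± 0.18 SE, adjusted p = 1.8e-04 by edgeR's quasi-likelihood test). Libraries with the same number deviated together in WT and KD, so results for the members are also given from a fit with the number as a block (with the replicate block) where that changes a call. Both libraries numbered 2 stood apart from the rest in nearly lacking Y-linked transcripts, with 14 and 36 counts over 4 genes against 1218 to 1899 in the other four. Among marker genes, 8 of 10 cycling cell markers tested were higher in KD and none lower (323 to 374 TPM in WT and 456 to 574 TPM in KD summed over the list), as were 4 of 5 intermediate progenitor markers (63.4 to 86.1 TPM in WT and 133 to 156 TPM in KD) and 4 of 12 cortical progenitor markers (3329 to 3780.3 TPM in WT and 3902 to 4184 TPM in KD). Of 12 neuron markers, 2 were higher and 3 lower (6780.1 to 7520.0 TPM in WT and 6428 to 7386 TPM in KD), and of 9 astrocyte and oligodendrocyte lineage markers tested 1 was lower (382 to 479.7 TPM in WT and 338 to 397 TPM in KD). Over all genes tested, 12% were higher in KD and 11.9% lower. Endothelium summed to 1.62 to 2.51 TPM in WT and 1.39 to 2.66 TPM in KD, and Cdh5, Cldn5, Tie1 and Emcn were at or near 0. Mural cell and fibroblast markers summed to 7.06 to 9.17 TPM in WT and 8.83 to 9.42 TPM in KD, with 1 of 4 tested higher. Of the microglia markers, P2ry12 and Tmem119 were near 0. Red blood cell markers, of which none was tested, summed to at most 1.23 TPM in a library. In such bulk samples fewer cells of a type and less RNA per cell cannot be told apart, and the part of these markers in the results below was not tested. With the block the counts were 10 of 10 cycling cell, 5 of 5 intermediate progenitor and 6 of 12 cortical progenitor markers higher, 5 neuron markers higher and 3 lower, and 3 astrocyte and oligodendrocyte lineage markers lower. Over all genes tested, 18.6% were higher and 18.1% lower with the block.

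Of the 33 genes tested, 5 rose and 2 fell after Ybx1 knockdown. The rises were in Hif1a, in the hypoxia targets Mxi1, Egln3 and P4ha2, and in Pdk1, whose kinase switches off pyruvate dehydrogenase. The falls were in the enzymes Eno2 and Pfkm. In the background, 12% of all genes tested rose and 11.9% fell, so the count of members in each direction was close to or below that of any genes. With the replicate block, 14 rose and 2 fell, against 18.6% and 18.1% of all genes. The genes that joined were Hk2, Pgk1, Eno1, Ldhb, Slc2a1, Pfkfb3, Vegfa, Bnip3 and P4ha1, and all 7 called without the block were called with it. The count of rises moved with single libraries: it was 1 without WT 1, without WT 2 or without KD 1, 2 without KD 3 and 8 without KD 2. The count of falls was 1 without WT 2, KD 1 or KD 3. Without both libraries numbered 2, which leaves 4 libraries, Mxi1 and Pdk1 rose and no member fell, with 135 genes higher and 93 lower over all genes tested.

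**Figure D1:**
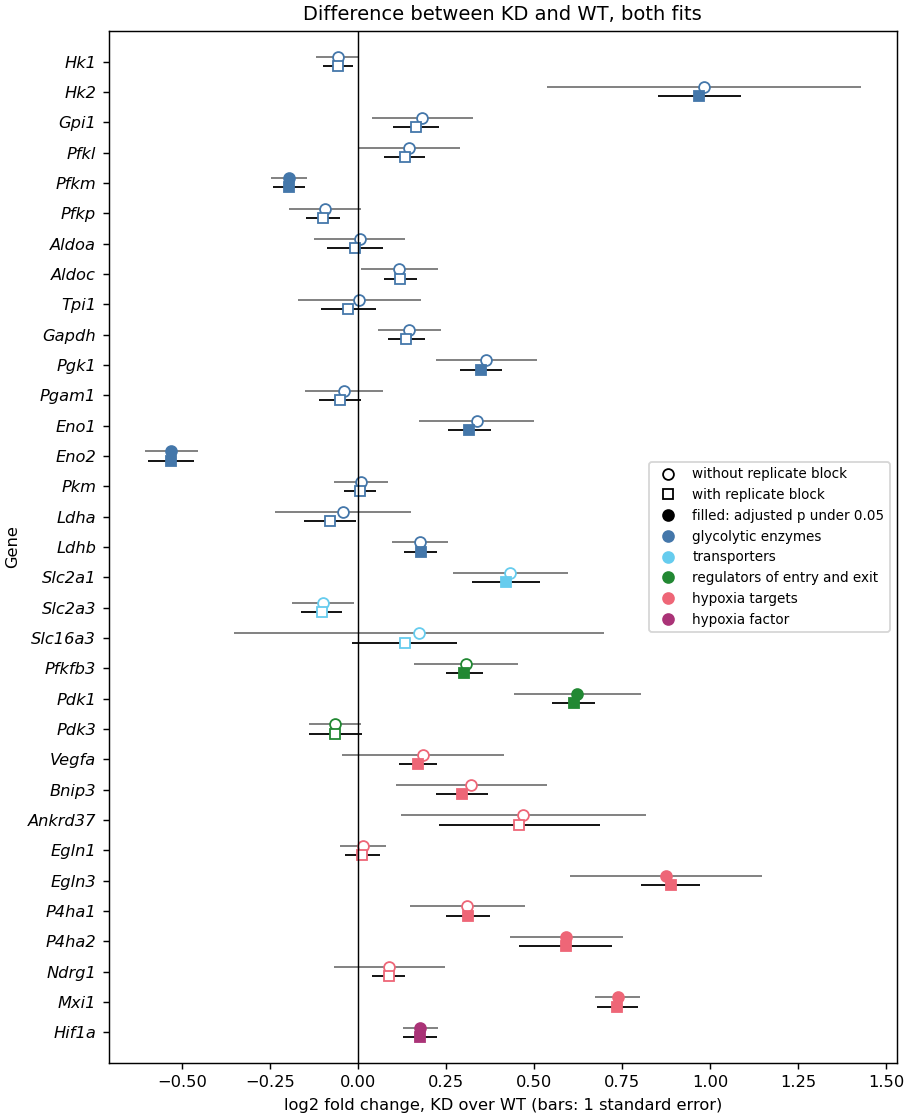
Log2 fold change of KD over WT for the 33 genes tested, from the fit without the replicate block (circles) and with it (squares), with bars of 1 standard error and filled symbols at an adjusted p under 0.05. Positions barely differ between the fits, the bars are mostly shorter with the block, and filled symbols go from 7 to 16.

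The 2 largest groups differed in their middle value. The 9 hypoxia targets tested had a median log2 fold change of 0.32, ranging from 0.013 to 0.87, and all 9 lay above 0. The 17 glycolytic enzymes had a median of 0.0083, ranging from -0.53 to 0.98, with 11 above 0. The target median was 0.19 without WT 2 and 0.54 without KD 2. The enzyme median ranged from -0.054 without KD 3 to 0.15 without KD 2. The median over all genes tested was -0.0013. Of the targets, 3 rose and none fell without the block, and 6 rose and none fell with it. Of the enzymes, none rose and 2 fell without the block, and 4 rose and 2 fell with it. Of all genes tested, 12% rose and 11.9% fell without the block, and 18.6% and 18.1% with it. The enzyme falls were thus close to or below the share of any genes. Some members of the other groups are hypoxia targets too, and adding Slc2a1, Slc16a3, Pfkfb3 and Pdk1 to the targets left their median at 0.32. The difference between the groups was not tested, since their members were chosen by name and with earlier results of these data known.

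Hif1a (chr12:73901324-73947554, Entrez 15251) encodes the subunit whose stability oxygen controls. It was at 159, 154 and 157 CPM in WT 1, 2 and 3 and 184, 179 and 168 CPM in KD 1, 2 and 3. The 3 KD values lay above the 3 WT values, as they did for 21% of all genes tested, and KD 3 was the nearest to WT. The rise was small, from 156 ± 2.33 to 177 ± 8.25 CPM (SD, n = 3; log2 fold change 0.18 ± 0.049 SE, adjusted p = 0.032). The adjusted p rose above 0.05 when any library other than KD 3 was left out, reaching 0.111 without WT 2, 0.107 without KD 2, 0.103 without KD 1, 0.064 without WT 1 and 0.053 without WT 3. Its exons share 330 bases with those of Gm15283 on the opposite strand and 148 with Gm49321 on the same strand, and the strand setting of the counting is not given in the sources used here.

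Mxi1 (chr19:53310128-53373293, Entrez 17859), a Max-binding repressor that opposes Myc, had the clearest rise of the members. It was at 44.1, 42.9 and 44.1 CPM in WT 1, 2 and 3 and 77.4, 67.1 and 74.0 CPM in KD 1, 2 and 3. The WT values were nearly equal, and the lowest KD value was above all of them. The level went from 43.7 ± 0.717 to 72.9 ± 5.28 CPM (log2 fold change 0.74 ± 0.064 SE, adjusted p = 3.7e-04), and the call held without each library. Exons of Mxi1 share 194 bases with Gm10197 on the opposite strand.

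Egln3 (chr12:54178981-54203874, Entrez 112407), a prolyl hydroxylase that the factor it degrades also induces, was at 11.6, 9.19 and 19.3 CPM in WT 1, 2 and 3 and 22.0, 18.9 and 32.6 CPM in KD 1, 2 and 3. KD was above WT within each number, by 0.92, 1.04 and 0.76 in log2 CPM, but WT 3 lay above KD 2, so the groups overlapped. The rise was among the largest (log2 fold change 0.87 ± 0.27 SE, adjusted p = 0.047, and 0.89 ± 0.084, adjusted p = 3.4e-06 with the replicate block). Without the block the adjusted p was 0.106 without WT 1, 0.148 without WT 2, 0.067 without KD 1, 0.057 without KD 2 and 0.141 without KD 3. Its relative Egln1, the main oxygen sensor of the family, stayed between 109 and 126 CPM over the 6 libraries, with a log2 fold change of 0.013 ± 0.065 SE.

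Of the catalytic subunits of collagen prolyl hydroxylase, P4ha1 and P4ha2 were in the set. P4ha2 (chr11:54100924-54131668, Entrez 18452) was at 5.28, 4.44 and 5.66 CPM in WT 1, 2 and 3 and 7.81, 6.46 and 8.91 CPM in KD 1, 2 and 3. All KD values were above all WT values (log2 fold change 0.59 ± 0.16 SE, adjusted p = 0.028). That p was 0.054 without WT 1, 0.102 without WT 2, 0.066 without KD 1 and 0.087 without KD 3. P4ha1, the more abundant of the pair by TPM, was at 37.9, 27.4 and 41.1 CPM in WT 1, 2 and 3 and 48.0, 34.9 and 49.0 CPM in KD 1, 2 and 3, and passed the test with the replicate block alone (log2 fold change 0.31 ± 0.16 SE, adjusted p = 0.201, and 0.31 ± 0.062, adjusted p = 0.0013 with the block).

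Of the other targets, Vegfa, the growth factor that draws in vessels, was at 111, 84.1 and 139 CPM in WT 1, 2 and 3 and 131, 85.7 and 163 CPM in KD 1, 2 and 3. Each number kept its place in both groups, with number 2 lowest and number 3 highest, and the spread within a group was wider than the difference (log2 fold change 0.18 ± 0.23 SE, adjusted p = 0.600). With the replicate block the difference passed the test (0.17 ± 0.054, adjusted p = 0.025), but not without pair 1 (adjusted p = 0.179) or pair 3 (0.067). Bnip3, which marks mitochondria for removal, was at 62.5, 48.1 and 67.7 CPM in WT 1, 2 and 3 and 76.4, 49.6 and 96.7 CPM in KD 1, 2 and 3. It showed the same order of numbers and also passed with the block alone (log2 fold change 0.32 ± 0.21 SE, adjusted p = 0.306, and 0.30 ± 0.073, adjusted p = 0.006 with the block). Bnip3 shares 504 exonic bases with Gm45507 on the opposite strand. Ankrd37, a small ankyrin-repeat gene at 1.22 to 3.06 CPM, passed neither fit (log2 fold change 0.47 ± 0.35 SE). Nor did Ndrg1, a stress-responsive gene at 123 to 191 CPM (0.088 ± 0.16 SE).

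**Figure D2:**
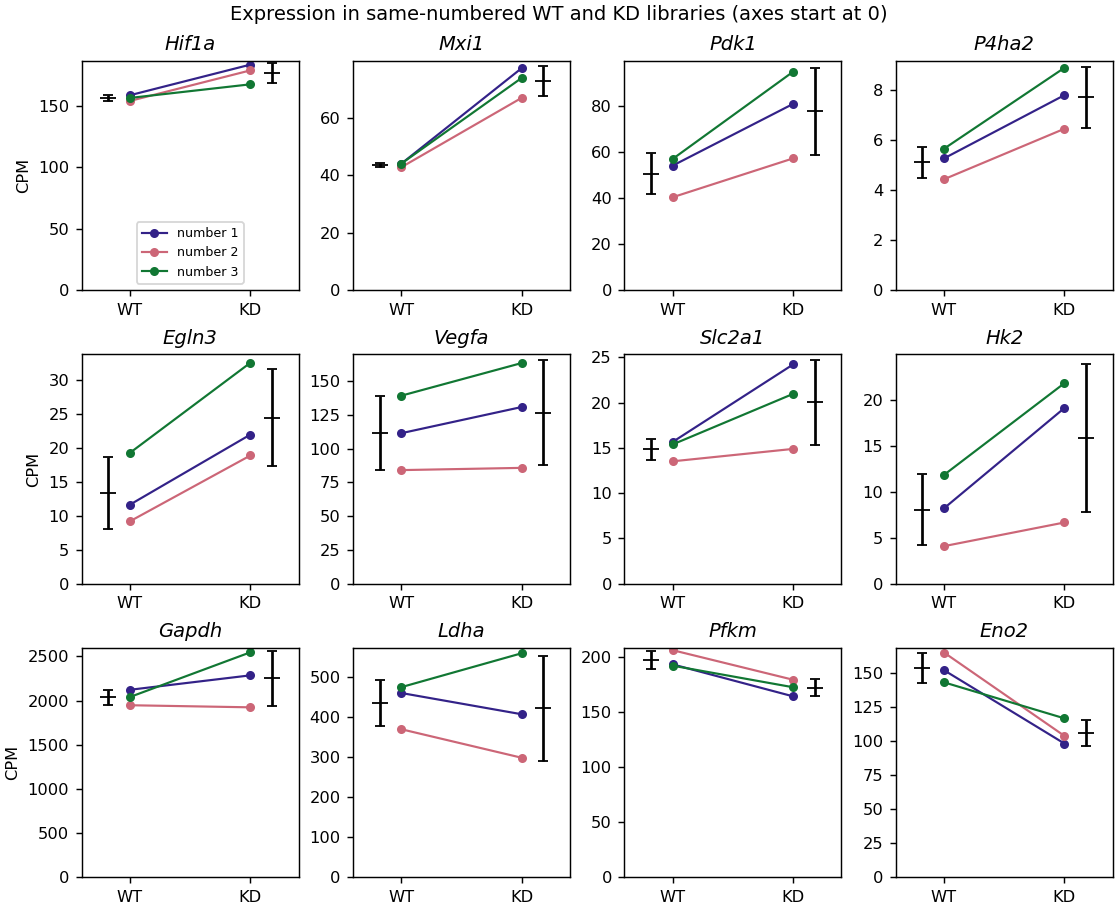
Expression in CPM of 12 members in WT and KD, with lines joining libraries of the same number and black bars giving mean ± SD of 3 libraries. The line of number 2 lies lowest in both groups for Mxi1, Pdk1, P4ha2, Egln3, Vegfa, Slc2a1, Hk2, Gapdh and Ldha, and the lines of Pfkm and Eno2 all slope downwards.

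At the entry to glycolysis, glucose is carried in by Slc2a1, the transporter of vessels and glia, and by Slc2a3, the neuronal one. Slc2a1 (chr4:119108745-119137330) was at 15.7, 13.51 and 15.4 CPM in WT 1, 2 and 3 and 24.2, 14.9 and 21.0 CPM in KD 1, 2 and 3. KD was above WT within every number, least so in number 2, and KD 2 lay below WT 1 and WT 3. The rise passed the test with the block (0.42 ± 0.10, adjusted p = 0.0034) and not without it (log2 fold change 0.43 ± 0.16 SE, adjusted p = 0.087). It also passed without KD 2 and no block (0.61, adjusted p = 0.017), and with the block it was lost without pair 1 (adjusted p = 0.055). Slc2a3, more abundant by TPM, was at 91.1 to 120.0 CPM, and passed neither fit (-0.10 ± 0.088 SE). By TPM, Slc2a1 made up 17.5%, 17.1% and 18.4% in WT 1, 2 and 3 and 26.7%, 21.1% and 22.7% in KD 1, 2 and 3 of the sum of both transporters.

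Hexokinases trap glucose by phosphorylation. Hk2 (chr6:82725025-82774454), the inducible form, was at 8.19, 4.07 and 11.8 CPM in WT 1, 2 and 3 and 19.1, 6.65 and 21.8 CPM in KD 1, 2 and 3. The level differed more between the lowest and highest number than between groups, and KD was above WT within each number, by 1.22, 0.70 and 0.88 in log2 CPM. Without the block the largest fold change of all members thus missed the threshold (log2 fold change 0.98 ± 0.45 SE, adjusted p = 0.141), and with the block it passed (0.97 ± 0.12, adjusted p = 2.6e-05). It also passed without KD 2 (adjusted p = 0.04). Hk1, the form of mature brain, was at 350.4 to 411 CPM and passed neither fit (-0.058 ± 0.061 SE). Hk2 made up 1.55%, 0.740% and 1.998% in WT 1, 2 and 3 and 3.66%, 1.27% and 3.74% in KD 1, 2 and 3 of the TPM of the pair, so that Hk1 supplied nearly all hexokinase mRNA of these cells.

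Phosphofructokinase is the committed step, and Pfkfb3 makes its strongest activator. Pfkfb3 was at 76.0, 64.0 and 88.6 CPM in WT 1, 2 and 3 and 97.0, 74.8 and 111 CPM in KD 1, 2 and 3, above WT within each number, and passed with the block alone (log2 fold change 0.31 ± 0.15 SE, adjusted p = 0.167, and 0.30 ± 0.053, adjusted p = 5.2e-04 with it). Of the 3 subunits of the enzyme itself, Pfkm (chr15:98092589-98132447), the muscle-type subunit, fell. It was at 193, 206 and 192 CPM in WT 1, 2 and 3 and 164, 179 and 172 CPM in KD 1, 2 and 3. All KD values were below all WT values, as for 20.6% of genes tested, and the fall was small (log2 fold change -0.20 ± 0.052 SE, adjusted p = 0.026). The adjusted p was 0.104 without WT 2, 0.083 without KD 1 and 0.059 without KD 3, and Pfkm shares 18 exonic bases with Senp1 on the opposite strand and 341 with Gm26513 on the same strand. Pfkl, the liver-type subunit, had a log2 fold change of 0.14 ± 0.14 SE and Pfkp, the platelet-type subunit, -0.10 ± 0.10 SE, and neither passed either fit, the counts of Pfkp being fractional in 2 libraries and its exons sharing 748 bases with Pitrm1 on the opposite strand. By TPM, Pfkm held 45.4% ± 3.12 of the 3 subunits in WT and 42.2% ± 3.88 in KD (SD, n = 3), a difference of about the size of the SD.

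Gapdh was the most abundant member by TPM. Gapdh (chr6:125161852-125166467), which makes NADH and is often taken as a reference gene, was at 2122, 1947 and 2040.0 CPM in WT 1, 2 and 3 and 2285, 1923 and 2547 CPM in KD 1, 2 and 3. The KD libraries spread wider than WT and 1 of them, KD 2, lay below all WT values. Gapdh passed neither fit (log2 fold change 0.15 ± 0.089 SE, adjusted p = 0.266, and 0.14 ± 0.052, adjusted p = 0.054 with the block), but passed without KD 2 (adjusted p = 0.041) and, with the block, without pair 2 (0.0011). Its counts were fractional in all 6 libraries, which happens where reads are shared between copies of a sequence, so its level is less certain. Pgk1, which makes the first ATP, was at 349, 277 and 326 CPM in WT 1, 2 and 3 and 434, 313 and 478 CPM in KD 1, 2 and 3. KD was above WT within each number, and the difference passed with the block (0.35 ± 0.060, adjusted p = 4.2e-04) and not without it (log2 fold change 0.36 ± 0.14 SE, adjusted p = 0.096). It also passed without KD 2 (adjusted p = 0.017).

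Gpi1 (glucose phosphate isomerase, 0.18 ± 0.14 SE), Aldoa and Aldoc (aldolases, 0.0039 ± 0.13 and 0.12 ± 0.11 SE), Tpi1 (triose phosphate isomerase, 0.0020 ± 0.17 SE), Pgam1 (phosphoglycerate mutase, -0.040 ± 0.11 SE) and Pkm (pyruvate kinase, 0.0083 ± 0.077 SE) passed neither fit, with log2 fold changes given in brackets. The table gives 1 value per gene, so the spliced forms of Pkm cannot be told apart.

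With the replicate block the enolases moved in opposite directions. Eno2 (chr6:124760053-124769673), the enolase of neurons, was at 152, 165 and 143 CPM in WT 1, 2 and 3 and 98.0, 104 and 117 CPM in KD 1, 2 and 3, and all KD values were below all WT values. It fell in KD (log2 fold change -0.53 ± 0.076 SE, adjusted p = 0.0022), and the call held without each single library. Without both libraries numbered 2 the adjusted p was 0.073. Eno1 (chr4:150236708-150248879), the enolase of progenitors and most other cells, was at 689.8, 541 and 685 CPM in WT 1, 2 and 3 and 806, 607 and 1004 CPM in KD 1, 2 and 3. It was above WT within each number and passed with the block (0.32 ± 0.060, adjusted p = 0.001) but not without it (log2 fold change 0.34 ± 0.16 SE, adjusted p = 0.166). It also passed without KD 2 (adjusted p = 0.04). The share of Eno2 in the enolase TPM was 12.1%, 16.0% and 11.7% in WT 1, 2 and 3 and 7.07%, 9.80% and 6.83% in KD 1, 2 and 3, so that no KD value reached the lowest WT value. The list of 12 neuron markers went both ways. Stmn2, Gap43 and Syt1 fell (log2 fold change -0.20, adjusted p = 0.047, -0.27, adjusted p = 0.015 and -0.36, adjusted p = 0.01). Dcx and Neurod2 rose (0.29, adjusted p = 0.0052 and 0.46, adjusted p = 0.016). The rest did not pass the test: Tubb3 (-0.057), Map2 (0.012), Snap25 (-0.065), Rbfox3 (0.075), Tbr1 (0.14), Bcl11b (0.16) and Neurod6 (0.65). With the block, Tbr1, Bcl11b and Neurod6 rose too.

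At the exit, Pdk1 (chr2:71873215-71903858, Entrez 228026) encodes a kinase that switches off pyruvate dehydrogenase. It was at 54.2, 40.5 and 57.1 CPM in WT 1, 2 and 3 and 81.1, 57.4 and 95.1 CPM in KD 1, 2 and 3. The lowest KD value, in KD 2, was just above the highest WT value, in WT 3 (log2 fold change 0.62 ± 0.18 SE, adjusted p = 0.037). The adjusted p was 0.051 without WT 1, 0.125 without WT 2, 0.084 without KD 1 and 0.106 without KD 3, and 4.5e-06 with the block. Pdk3, a kinase of the same family, stayed at 21.0 to 23.4 CPM (-0.066 ± 0.073 SE).

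Lactate dehydrogenase is made of Ldha and Ldhb subunits, the first favouring lactate production. Ldha (chr7:46842274-46855627) was at 459.7, 369 and 474 CPM in WT 1, 2 and 3 and 407, 298 and 559 CPM in KD 1, 2 and 3. KD was below WT in numbers 1 and 2 and above it in number 3 (log2 fold change -0.045 ± 0.19 SE, adjusted p = 0.890). Ldhb was at 244, 241 and 204 CPM in WT 1, 2 and 3 and 277, 259.8 and 240.2 CPM in KD 1, 2 and 3 and passed with the block alone (log2 fold change 0.17 ± 0.079 SE, adjusted p = 0.138, and 0.18 ± 0.047, adjusted p = 0.0085 with it; adjusted p = 0.055 without pair 1). The share of Ldha in the TPM of the pair was 58.8%, 53.6% and 63.7% in WT 1, 2 and 3 and 52.6%, 46.4% and 63.7% in KD 1, 2 and 3, and the groups overlapped. Slc16a3, which carries lactate out of the cell, was at 7.89, 2.71 and 8.22 CPM in WT 1, 2 and 3 and 10.2, 2.07 and 8.97 CPM in KD 1, 2 and 3, lowest in number 2 of both groups, and passed neither fit (log2 fold change 0.17 ± 0.53 SE, adjusted p = 0.843).

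**Figure D3:**
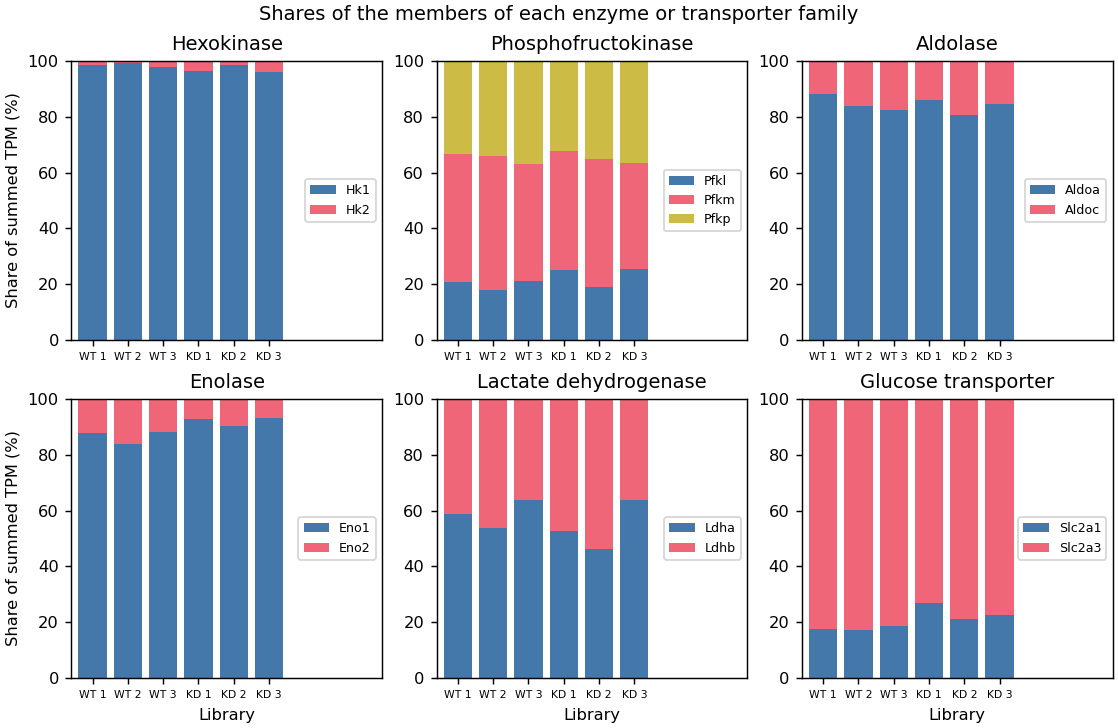
Share of each gene in the summed TPM of its family, in percent, for each of the 6 libraries. Eno2 takes 13.3% ± 2.403 of enolase TPM in WT and 7.90% ± 1.65 in KD (SD, n = 3), Slc2a1 17.7% ± 0.652 and 23.5% ± 2.88 of the glucose transporters, while Aldoa and Ldha shares overlap between groups.

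Levels of these genes also differed between library numbers. In 23 of the 33 members tested, library 2 was the lowest of WT and also the lowest of KD, against 10.9% of all genes tested. This held for 8 of 9 hypoxia targets, 10 of 17 glycolytic enzymes and all 3 transporters. Summed over the 17 enzymes, expression was 10307, 9109 and 10095 TPM in WT 1, 2 and 3 and 11170.1, 9233 and 12481 TPM in KD 1, 2 and 3. The sums of the groups overlapped, and KD 3 was the highest. The 10 targets summed to 407, 380.3 and 496 TPM in WT 1, 2 and 3 and 519, 448 and 616 TPM in KD 1, 2 and 3.

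**Figure D4:**
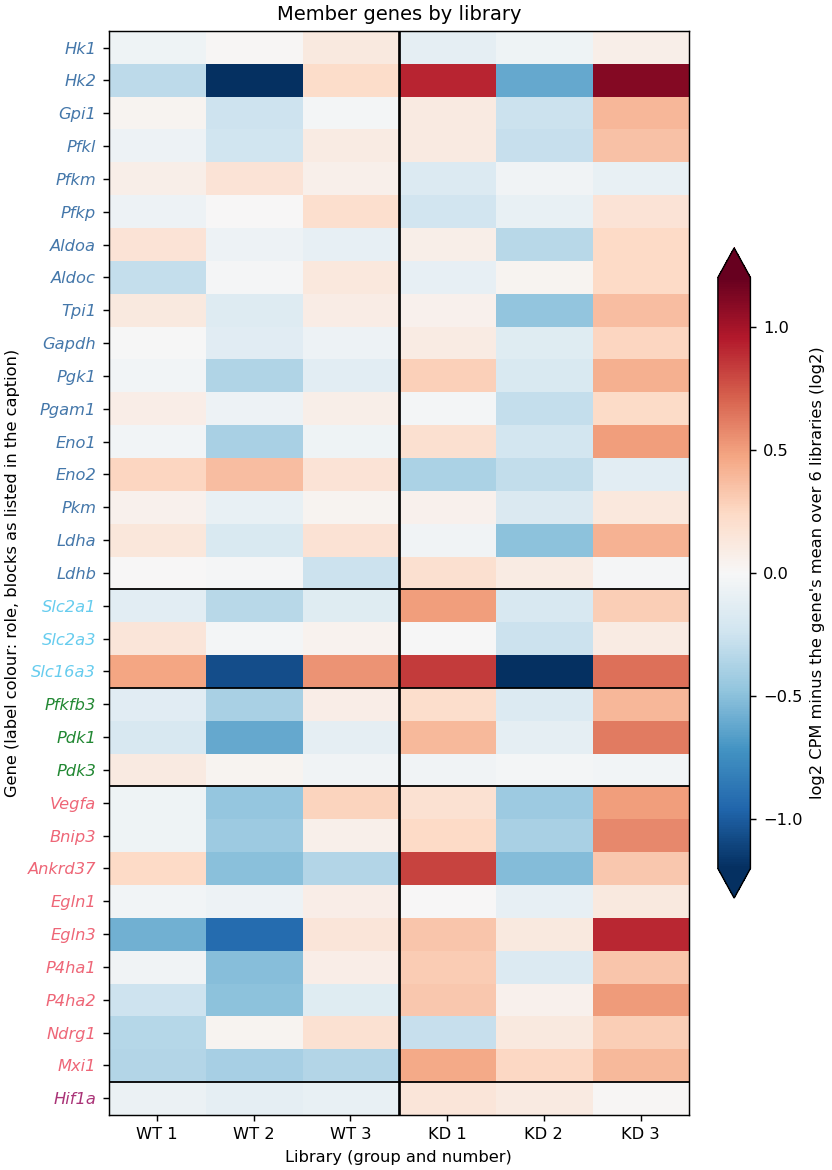
Log2 CPM of each gene tested minus its mean over the 6 libraries, with blocks from top to bottom of glycolytic enzymes, transporters, regulators of entry and exit, hypoxia targets and Hif1a. The columns WT 2 and KD 2 are blue in most rows, and KD 3 is red in most rows.

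Within same-numbered pairs, KD was above WT in all 3 pairs for 16 members and below in all 3 for 4, against 31% and 30.7% of all genes tested. Those below were Hk1, Pfkm, Pfkp and Eno2. Among hypoxia targets, 7 of 9 were above in all 3 pairs and none below. The median difference of the targets was 0.34, 0.078 and 0.51 in pairs 1, 2 and 3 (log2 CPM), and that of the glycolytic enzymes 0.0049, -0.063 and 0.24 in pairs 1, 2 and 3. Pair 3 had the highest median of both groups. Ybx1 was reduced least in this pair, and a link between the 2 was not tested. Leaving pair 3 out of the blocked fit turned the enzyme count to 4 higher and 7 lower. The falls then covered Aldoa (-0.18, adjusted p = 0.0081), Tpi1 (-0.19, 0.019), Pgam1 (-0.16, 0.012), Ldha (-0.24, 1.0e-03) and Pfkp (-0.13, 0.039), beside Pfkm and Eno2. Leaving out pair 2 gave 7 higher, Gpi1, Pfkl and Gapdh joining the 4, and 2 lower. For Aldoa, Tpi1, Pgam1 and Ldha the sign of the difference was thus not the same in every pair. With the block and without each pair in turn, Hk2, Pgk1, Eno1, Pfkfb3, Pdk1, Bnip3, Egln3, P4ha1, P4ha2 and Mxi1 rose and Eno2 fell every time.

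**Figure D5:**
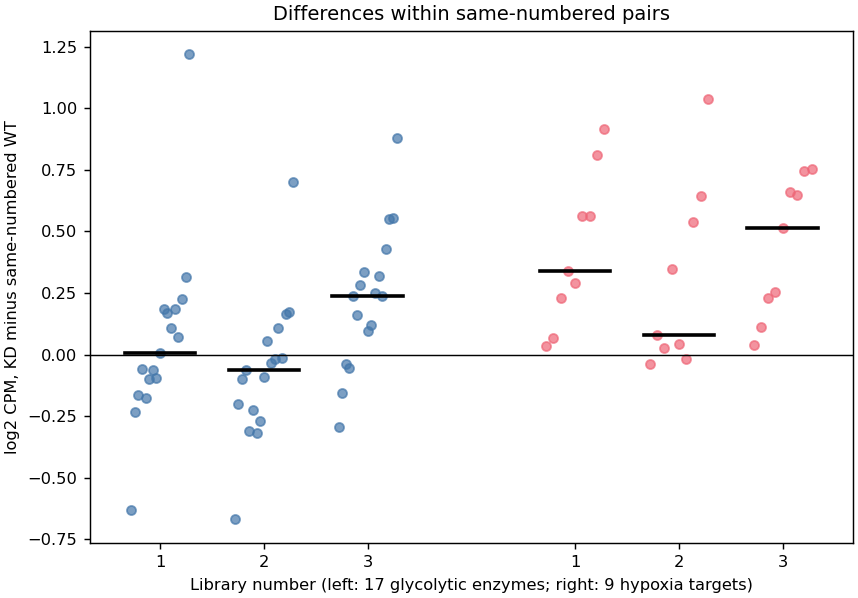
Difference in log2 CPM between the KD and WT library of each number, with a point per gene for 17 glycolytic enzymes (left) and 9 hypoxia targets (right), ordered within a pair by overall fold change, and bars at the medians. The enzyme medians are 0.0049, -0.063 and 0.24 in pairs 1, 2 and 3, and the target medians lie above 0 in every pair.

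Genes of the same pathways outside the set were counted too. Of 18 genes of the oxygen-sensing machinery tested, 4 rose and 3 fell (4 and 5 with the block; median log2 fold change 0.0079). For these lists too the background is 12% of all genes tested higher and 11.9% lower, or 18.6% and 18.1% with the block. Vhl, the ligase subunit that recognises the hydroxylated factor, rose (0.55, adjusted p = 6.6e-04), as did Arnt, the partner subunit of Hif1a (0.30, adjusted p = 0.0067), and Siah1b, a ligase that acts on the prolyl hydroxylases (0.41, adjusted p = 0.032). Arnt2, the neural relative of Arnt (-0.37, adjusted p = 0.0016), Eloc (-0.37, adjusted p = 0.0021) and Rbx1 (-0.26, adjusted p = 0.0099), fell, Eloc and Rbx1 being parts of the Vhl ligase. Calls in this list thus went both ways.

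Of 34 other hypoxia targets tested, 10 rose and 3 fell (15 and 4 with the block; median 0.19). The largest rises were in Sap30, a subunit of a histone deacetylase complex (0.65, adjusted p = 0.0062), Zfp395 (0.57, adjusted p = 0.016) and Higd1a, a mitochondrial protein (0.57, adjusted p = 0.025). The falls were in Ppfia4, a liprin of synapses (-0.61, adjusted p = 0.001), Gys1, glycogen synthase (-0.43, adjusted p = 0.032), and Plod1, a collagen lysyl hydroxylase (-0.39, adjusted p = 0.017). Counts of Higd1a and Gys1 were fractional in all 6 libraries. Of 23 other glycolysis and glucose genes tested, 1 rose and 3 fell (4 and 3 with the block; median 0.084): G6pc3, a glucose phosphatase, rose (0.48, adjusted p = 0.015), Slc2a13, a myo-inositol transporter, fell (-0.20, adjusted p = 0.049), and Galm, under 5 CPM, fell too. The calls of the 23 genes named from these and the pyruvate and pentose lists held in 18 cases without WT 1, 12 without WT 2, 20 without WT 3, 18 without KD 1, 14 without KD 2 and 19 without KD 3. Of these 6 fits, the call was kept in 0 for Slc2a13, 1 for Siah1b and 2 each for Higd1a and Gys1.

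The promoters of the members were scanned for ACGTG and GCGTG, the core letters to which the hypoxia-inducible factor is known to bind, on both strands. RefSeq promoter windows of GRCm38.p6, reaching 250 bases before each start to 50 after it (300 bases in all), were found for 32 of the 34 members (not for Slc2a3 and Ndrg1), with 48 windows. The letters were present in 38 windows (79.2%) and at least once in 29 of 32 genes. Of all 32851 promoter windows 43.8% held them, and of the 14017 windows of genes tested here 61.1%. Counted by gene, 67.4% of genes tested held them in at least one window, against 90.6% of the members with a window. Every one of the 9 targets with a window had the letters in at least one, as did 14 of 17 enzymes, the exceptions being Eno2, Gpi1 and Tpi1. The palindrome CACGTG, in which ACGTG is read on both strands, was in 5 of 48 member windows (10.4%) and in 9.64% of the windows of genes tested. A match is a description of letters, not of binding. Shown here are the 250 bases before the start of the 4 largest rises past the test without the block, for Mxi1 the window before its second start, picked because it holds a match, and of Eno2, the largest fall, with the matching letters in capitals.
Egln3, chr12:54203875-54204124, minus strand: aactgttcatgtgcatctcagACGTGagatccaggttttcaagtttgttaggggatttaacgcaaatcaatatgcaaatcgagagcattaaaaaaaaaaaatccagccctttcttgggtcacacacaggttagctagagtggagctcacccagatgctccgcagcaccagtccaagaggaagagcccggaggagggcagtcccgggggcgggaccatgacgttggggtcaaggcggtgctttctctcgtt
Mxi1, chr19:53329163-53329412, plus strand: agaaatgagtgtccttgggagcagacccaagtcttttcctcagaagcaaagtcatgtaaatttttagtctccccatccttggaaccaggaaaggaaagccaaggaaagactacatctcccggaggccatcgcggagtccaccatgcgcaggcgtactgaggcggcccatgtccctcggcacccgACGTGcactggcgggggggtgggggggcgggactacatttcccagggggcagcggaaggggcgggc
Pdk1, chr2:71872974-71873223, plus strand: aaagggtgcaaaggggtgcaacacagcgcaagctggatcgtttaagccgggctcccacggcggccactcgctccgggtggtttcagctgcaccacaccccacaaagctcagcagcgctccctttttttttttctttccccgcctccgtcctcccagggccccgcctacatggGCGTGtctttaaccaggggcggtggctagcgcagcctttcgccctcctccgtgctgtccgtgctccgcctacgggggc
P4ha2, chr11:54100674-54100923, plus strand: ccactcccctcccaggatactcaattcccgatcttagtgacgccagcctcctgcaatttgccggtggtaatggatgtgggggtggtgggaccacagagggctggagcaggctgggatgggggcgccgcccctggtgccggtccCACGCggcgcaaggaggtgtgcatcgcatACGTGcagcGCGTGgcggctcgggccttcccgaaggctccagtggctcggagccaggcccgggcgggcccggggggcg
Eno2, chr6:124769674-124769923, minus strand: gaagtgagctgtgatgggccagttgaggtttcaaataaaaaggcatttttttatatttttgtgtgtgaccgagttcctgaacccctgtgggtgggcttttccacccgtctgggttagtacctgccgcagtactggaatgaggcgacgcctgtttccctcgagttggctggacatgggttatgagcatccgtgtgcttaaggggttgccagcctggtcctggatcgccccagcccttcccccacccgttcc
Only matches wholly within the 250 bases are in capitals. Counted from the start, they began 229 bases before it in Egln3, 66 in Mxi1 and 78 in Pdk1. In P4ha2 they began at 107, 78 and 69 bases. Pdk1 had a further match that began 2 bases before the start and ran across it. P4ha2 had a further match 10 bases after the start. The window of Eno2 had none. Other windows of the same gene could differ: the window before the first start of Mxi1 and that before the second start of Pdk1 had no match.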

How the data were processed

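RNA of 3 WT and 3 KD cultures was sequenced as mRNA libraries on the DNBSEQ platform, per the methods of the study as separate replicate experiments. The submitters' processing notes name HISAT2 2.2.1, Bowtie2 2.4.5, RSEM 1.3.1 and the build GRCm38 (mm10), with no role or order. The deposited table gives, for each gene, estimated counts, of which 89.3% to 89.9% per library are whole numbers, and TPM values, which the authors scaled to transcript length and depth. The 6 FPKM columns and 6 group means of the authors were not used. Columns named Ctrl were matched to the WT titles by number.

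Estimated counts were rounded and tested in R 4.3.3 with edgeR 4.0.16 (TMM, filterByExpr with a minimum count of 10, quasi-likelihood test of KD against WT, Benjamini-Hochberg adjustment over 13669 genes, threshold 0.05). As the test has no SE of its own, SE was taken as the size of the log2 fold change over the root of F. The fits were tested on simulated data. Whether numbers pair the libraries was checked by correlating deviations from group means over genes: r was 0.30, 0.26 and 0.13 for numbers 1, 2 and 3, and -0.25 to 0.0036 between different numbers. All same-numbered values exceeded 0.1, though number 3 only slightly, so the numbers were treated as pairing the libraries. A fit with the number as a block was added. What a number marks is not given in the sources used here, so p-values measure the spread between these libraries, which may be technical. Replicates of a group differed by 4.43 to 8.66 in chi-square per degree of freedom, so none agreed within sampling noise.

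Members and gene lists were chosen with earlier results of these data known. The text gives by library the members with an adjusted p under 0.05 and a mean of at least 1 CPM, and Hif1a, Slc2a1, Hk2, Gapdh, Ldha and Vegfa whatever their result. Members called with the block alone are given by library too, which was decided after their values were seen. From each other list up to 3 rises and 3 falls with a mean of at least 5 CPM are named. Older symbols (Ero1a) were matched by RefSeq. Pgk2, Hbb-y, Hbb-bh1 and Hba-x were not used here, and results of a few listed genes are not reported here. Overlaps of exons come from GENCODE M21 (GRCm38). Alternatives were other scalings, filters and tests (DESeq2 1.42.0, limma 3.58.1), the block, leaving out libraries and stricter thresholds.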

Additional observations from a re-analysis of the deposited data

How the results depend on the processing

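Without the block, 1646 genes and 5 members were higher and 1631 and 2 lower. The counts became 2539 genes and 14 members higher and 2470 and 2 lower with the replicate block. The block with RLE scaling gave 2562 genes and 15 members higher and 2456 and 2 lower, with total counts 2884 genes and 18 members higher and 2175 and 2 lower, in DESeq2 1381 genes and 12 members higher and 1298 and 2 lower, and without pairs 1, 2 and 3 1704 genes and 11 members higher and 1681 and 1 lower, 1831 genes and 16 members higher and 1706 and 2 lower, and 2690 genes and 13 members higher and 2669 and 8 lower (all added after seeing the data). Leaving out 1 library gave 779 to 1612 genes higher, 797 to 1583 lower, 1 to 8 members higher and 1 to 2 lower. Leaving out both libraries numbered 2, with fewer samples, gave 135 genes and 2 members higher and 93 and 0 lower. An adjusted p under 0.01 gave 629 genes and 1 members higher and 634 and 1 lower, and a 1.2-fold minimum left 1 member lower. Upper-quartile scaling gave 3 members higher, and limma-trend on log2(TPM + 1) 1072 genes and 1 member lower, where 65.9% of calls were higher against 50.2%. The DESeq2 test without the block called Slc2a1 (adjusted p = 0.049) and not Pdk1 (0.055) or Egln3 (0.096). Under each alternative the medians of enzymes and targets moved by less than the SD of the libraries' median log2 CPM within groups. That SD was 0.19 for the enzymes and 0.25 for the targets, wide beside the medians of 0.0083 and 0.32. It is a spread of levels, not of fold changes, so staying within it says little. Leaving out 1 library gave 0.19 to 0.54 for the targets and -0.054 to 0.15 for the enzymes. Mxi1 kept its call under all 22 alternatives. The cause was not tested.

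Some members changed sign in log2 fold change under an alternative, among them Pfkl, Slc16a3 and Vegfa, which were not near 0. Pfkl went from 0.14 to -0.0087 to 0.30 without 1 library. Aldoa went from 0.0039 to -0.016 with upper-quartile scaling, -0.011 with limma-voom, -0.0099 with the replicate block, -0.0084 with the block and RLE, -0.0062 with the block in DESeq2, -0.18 with the block without pair 3 and -0.12 to 0.15 without 1 library. Tpi1 went from 0.0020 to -0.018 with upper-quartile scaling, -0.033 with limma-voom, -0.028 with the replicate block, -0.027 with the block and RLE, -0.0062 with the block and total counts, -0.028 with the block in DESeq2, -0.010 with the block without pair 1, -0.19 with the block without pair 3 and -0.21 to 0.20 without 1 library. Pgam1 went from -0.040 to 0.037 with neither library 2, 0.032 with the block without pair 2 and -0.18 to 0.081 without 1 library. Pkm went from 0.0083 to -0.012 with upper-quartile scaling, -0.041 with the block without pair 3 and -0.054 to 0.093 without 1 library. Ldha went from -0.045 to 0.048 with neither library 2, 0.030 with the block without pair 2 and -0.30 to 0.15 without 1 library. Slc16a3 went from 0.17 to -0.027 with the block without pair 1 and -0.19 to 0.61 without 1 library. Vegfa went from 0.18 to -0.041 to 0.40 without 1 library. Egln1 went from 0.013 to -0.0079 with upper-quartile scaling, -0.00069 with the block without pair 3 and -0.041 to 0.063 without 1 library. Ndrg1 went from 0.088 to -0.049 to 0.23 without 1 library. Of these reversals, those of Aldoa and Tpi1 with the block without pair 3 passed the threshold. An alternative for normalised values alone did not apply, since counts were given. The depth limited what could be said of Adm.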

Other observations

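Beyond glycolysis, genes that decide the fate of pyruvate and of phosphorylated glucose were counted. Of 22 genes of pyruvate and lactate fate tested, 3 rose and 1 fell (6 and 4 with the replicate block; median log2 fold change 0.019). Of all genes tested 12% rose and 11.9% fell, or 18.6% and 18.1% with the block. Pdp2, a phosphatase that reactivates pyruvate dehydrogenase and so opposes Pdk1, rose, at 12.1 ± 0.543 CPM in WT and 18.5 ± 0.998 in KD (SD, n = 3; log2 fold change 0.61, adjusted p = 0.0024). Pdk2, a kinase with the action of Pdk1, rose as well, at 27.3 ± 1.19 CPM in WT and 32.5 ± 1.23 in KD (SD, n = 3; log2 fold change 0.25, adjusted p = 0.022), as did Got2, the mitochondrial aspartate aminotransferase, at 195 ± 11.5 CPM in WT and 232 ± 6.79 in KD (SD, n = 3; log2 fold change 0.25, adjusted p = 0.012). Of the 6 fits that each left out 1 library, 2 kept the call of Pdk2. Pcx, which carboxylates pyruvate, fell, at 83.4 ± 3.88 CPM in WT and 70.6 ± 1.57 in KD (SD, n = 3; log2 fold change -0.24, adjusted p = 0.014). Of 10 pentose phosphate pathway genes tested, 2 rose and 3 fell (the same counts with the block; median 0.036). The rises were in Prps2 and Prps1, which turn ribose phosphate into the precursor of nucleotides, at 14.7 ± 1.90 CPM in WT and 24.7 ± 2.52 in KD (SD, n = 3; log2 fold change 0.75, adjusted p = 0.0031) and 55.4 ± 2.71 CPM in WT and 67.5 ± 2.35 in KD (SD, n = 3; log2 fold change 0.29, adjusted p = 0.0089). The falls were in H6pd, Pgls and Tkt, enzymes of the path itself, with log2 fold changes of -0.43, -0.21 and -0.17. The call of Pgls was kept in 1 of the 6 fits that each left out 1 library.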
